A study of Mus musculus with 6 samples.

Results

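Glucocorticoid activation and response genes were examined in antigen-activated CD4+ T cells with and without the histone deacetylase HDAC1. The group holds 7 named genes of the 55536 in the deposited count table: Hsd11b1 and H6pd, which act together to regenerate active steroid, the receptor gene Nr3c1, and the response genes Fkbp5, Tsc22d3, Per1 and Zbtb16. They were picked by gene name for their known roles. The choice was made with the HDAC1-cKO against WT result for Hsd11b1 already known. The differences between genotypes of all 7 genes are therefore given as a description. Intervals and calls printed for them come from the fit over all genes and are no independent support. Of the 7 genes, 6 passed the filter on low counts, and Zbtb16 had no count in any library.

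Both groups were 2D2 transgenic C57BL/6 CD4+ T cells, which carry a T cell receptor for a myelin peptide, and both had floxed Hdac1 alleles. HDAC1-cKO cells were 2D2-Hdac1fl/fl-Cd4-Cre+, and WT cells were 2D2-Hdac1fl/fl-Cd4-Cre-, and no group carried Cre without floxed alleles. Naive cells went into recipients with another CD45 allele, footpad immunisation with MOG35-55 peptide in complete Freund's adjuvant followed after 18 hours, and the draining popliteal lymph nodes were taken 4 days later. Each library was made from 500 sorted donor cells pooled from 2 mice, with 3 libraries per genotype and no age given in the labels. Because the Cd4 promoter already drives Cre in the thymus, the deletion precedes transfer, and the labels name no depletion of the recipients' own cells.

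Glucocorticoids circulate partly as an inert keto form. The enzyme encoded by Hsd11b1 sits in the endoplasmic reticulum and converts that form back to the active hormone, using NADPH that the product of H6pd makes in the same compartment. The hormone binds the receptor encoded by Nr3c1, which waits in the cytosol on HSP90 and its co-chaperones, moves to the nucleus and switches genes such as Fkbp5, Tsc22d3 and Per1 on while holding many cytokine genes down. In T cells this system restrains activation and can cause cell death.

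The upstream sequences of the enzyme pair and of the best known response gene are shown because the enzyme pair is where the genotypes separated and because these are places where a receptor site would lie close to the start. RefSeq's promoter table (GRCm38.p6) held 8 start sites for 5 of the 7 genes and none under the names Nr3c1 and Zbtb16. The 250 bases before each start were searched on both strands for the hexamer AGAACA, which reads TGTTCT on the other strand, and for the palindromic glucocorticoid response element, in which AGAACA and TGTTCT stand 3 bases apart, so that each full element also counts as a hexamer match. Capitals mark a hexamer.
Hsd11b1 (chr1:193242361-193242610, minus strand): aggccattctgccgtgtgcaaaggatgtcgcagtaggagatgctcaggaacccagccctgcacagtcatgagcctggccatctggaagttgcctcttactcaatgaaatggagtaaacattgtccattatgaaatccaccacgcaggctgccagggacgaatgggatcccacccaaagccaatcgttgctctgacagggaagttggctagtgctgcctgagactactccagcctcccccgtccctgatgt
H6pd (chr4:150003237-150003486, minus strand): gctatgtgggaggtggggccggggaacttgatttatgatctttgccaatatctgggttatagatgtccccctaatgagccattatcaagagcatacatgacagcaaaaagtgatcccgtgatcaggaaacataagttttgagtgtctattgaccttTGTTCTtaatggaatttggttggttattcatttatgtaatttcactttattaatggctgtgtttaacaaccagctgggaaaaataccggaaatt
Tsc22d3, farthest upstream start (chrX:140600523-140600772, minus strand): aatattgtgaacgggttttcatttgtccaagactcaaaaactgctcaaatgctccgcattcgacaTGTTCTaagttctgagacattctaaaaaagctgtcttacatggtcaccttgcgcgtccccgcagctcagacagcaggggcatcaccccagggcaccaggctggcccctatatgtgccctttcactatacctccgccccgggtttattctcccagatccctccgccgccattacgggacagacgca
The full element was in 0 of the 8 member windows and in 3 of 32851 windows of the table, which is 0.00913%. An exact element this rare would be missing from nearly any 8 windows, so nothing is read from its absence. The hexamer was in 2 of the 8, those of H6pd and of the farthest upstream Tsc22d3 start, against 16.1% of all windows. These matches began 94 and 185 bases before the RefSeq start. The Hsd11b1 window had a GC content of 54.4% and 6 CG dinucleotides, both close to the medians of 52.4% and 6 over all windows, whereas that of Fkbp5 had 23 CG dinucleotides, more than in 86.7% of all windows. RefSeq's starts of Hsd11b1, H6pd, Fkbp5 and Per1 lie inside the gene bodies of the deposited coordinates, as do the nearer Tsc22d3 starts. Only the farthest upstream Tsc22d3 window spans the outer end of its body. The bases before the outer ends of the other bodies were not searched, nor were sites farther away.

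Library totals ran from 19956153 to 55900237 counts. Hdac1, the targeted gene, was measured at 14.7 to 17.2 CPM (counts scaled to the size of each library) in the 3 HDAC1-cKO libraries against 234 to 244 CPM in the 3 WT libraries, which matches the labels of all 6. HDAC1-cKO replicate 2 stood apart: the deviation of its genes from the mean of all libraries followed GC content (Pearson r = 0.586 across 8330 genes, against -0.28 to -0.0737 in the other 5). All 15 T cell markers reached at least 10 CPM in some library, Cd4 among them. Among all genes, 306 of the 15519 tested passed an adjusted p of 0.05 (edgeR quasi-likelihood test, Benjamini-Hochberg), which is 1.97%, and 24.6% had libraries that did not overlap between genotypes. In each case the quantity is RNA of a bulk sample, where fewer cells using a gene and less RNA per cell cannot be told apart.

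The plot of the 6 detected genes by library shows 1 pair of genes with separated genotypes, Hsd11b1 and H6pd, in opposite directions, against 24.6% of all tested genes with separated libraries (12.7% with HDAC1-cKO higher and 11.8% with it lower). In the remaining 4 the libraries of both genotypes overlapped.

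**Figure D1:**
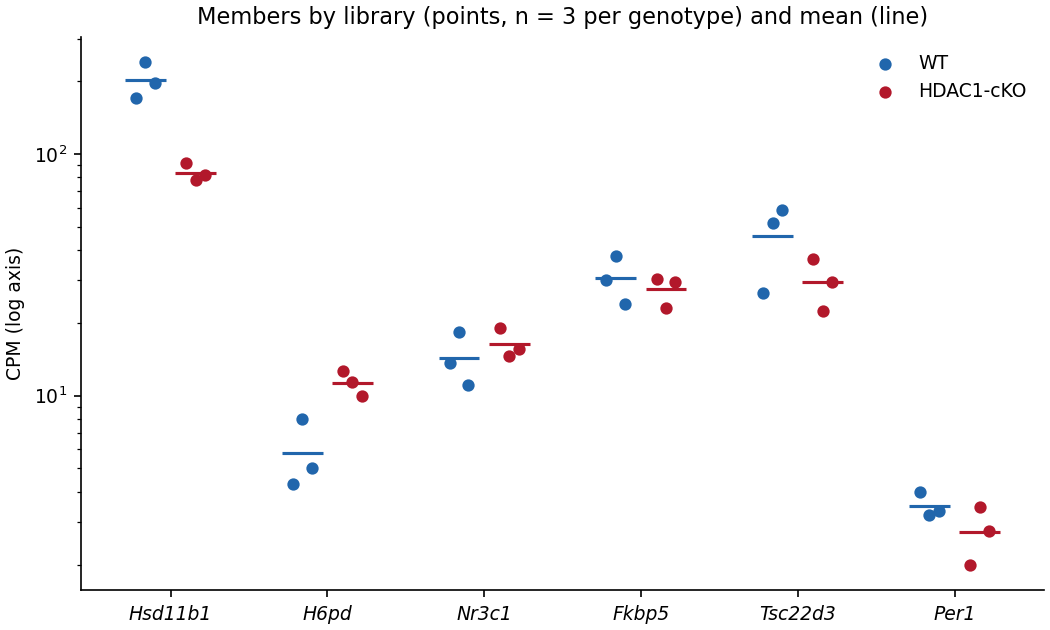
CPM on a log axis for the 6 members with counts, each point 1 library and each line the mean of 3 libraries, WT in blue and HDAC1-cKO in red. Hsd11b1 lies between 77.8 and 92.0 CPM in HDAC1-cKO and between 171 and 240.5 CPM in WT, H6pd is separated the other way, and the other 4 genes overlap.

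Hsd11b1 had the highest level per length of the 7 and was the one with the widest gap between genotypes. Its level was 92.0, 77.8 and 81.6 CPM in HDAC1-cKO replicates 1, 2 and 3, from 3001, 2909 and 1666 counts. In WT replicates 1, 2 and 3 it was 171, 240.5 and 197 CPM, from 8751, 13232 and 7485 counts. Every HDAC1-cKO library lay below every WT library, and the HDAC1-cKO libraries were closely grouped. The mean of 83.8 ± 7.35 CPM was 41.3% of the WT mean of 203 ± 35.2 CPM (SD, n = 3). The log2 difference, HDAC1-cKO minus WT, was -1.27 ± 0.15 (SE), or 2.42-fold lower, with a 95% interval from -1.62 to -0.93. Hsd11b1 was the 1 gene among the 6 tested members past the threshold over all genes, where 0.992% of tested genes were called lower; as its fall in these libraries was known when it was chosen, nothing is read from that count. The difference stayed between -1.39 and -1.15 without any 1 library, and it was -1.23 without HDAC1-cKO replicate 2. Leaving out HDAC1-cKO replicate 1, HDAC1-cKO replicate 3 or WT replicate 3 ended the call, with log2 differences of -1.35, -1.26 and -1.30.

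Per length, Hsd11b1 ranked high among the genes of these T cells. On the deposited FPKM scale, which divides counts by gene length and by library size, its level was 106 ± 18.6 in WT and 43.8 ± 3.92 in HDAC1-cKO (SD, n = 3), above 93.0% and 84.5% of all tested genes. The gene is on chromosome 1 (193221634 to 193264075, minus strand, GRCm38). It shared none of its 4188 stretches of 50 bases with transcripts of another gene, and no exon bases with the 3 genes that overlap its body.

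Other cells of the lymph node, such as macrophages, fibroblasts and adipocytes, can also make this enzyme. Of 16 myeloid and dendritic cell markers, 5 were at 0 in all libraries, among them Csf1r, Cd14 and Flt3. The 7 tested ones had 6 negative and 1 positive log2 differences, with a median of -0.63, and 0 were called in edgeR. Of all tested genes 50.3% were negative. The summed level of that list was 9.57 to 11.9 CPM in HDAC1-cKO and 8.64 to 31.0 CPM in WT, and without the lysozyme gene Lyz2 it was 6.61 to 8.59 CPM over all 6 libraries. Lyz2 was at 2.03, 22.6 and 10.4 CPM in WT replicates 1, 2 and 3 and at 0.98 to 3.75 CPM in HDAC1-cKO. Within WT, Lyz2 and Hsd11b1 had the same order over the 3 libraries, lowest in replicate 1 and highest in replicate 2; the part of these markers in the Hsd11b1 result was not tested. The collagen gene Col1a2 and the fibroblast markers Pdgfra and Pdpn were at 0 throughout, and the stromal list, leaving out Thy1, which T cells express, summed to 0.71 to 2.45 CPM. Of 8 adipocyte markers, Adipoq, Plin1, Lep and Cidec were at 0 in all libraries, and the list summed to 69.5 to 95.6 CPM in HDAC1-cKO and 57.9 to 66.1 CPM in WT. Nearly all of that sum was Fabp4, at 68.1 to 94.7 and 56.5 to 65.6 CPM, without which the list summed to 0.49 to 1.45 CPM. B cell markers summed to 41.3 to 81.0 CPM in HDAC1-cKO and 22.8 to 54.2 CPM in WT; their part in the result was not tested.

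H6pd, which supplies the cofactor, was separated the opposite way. It stood at 12.6, 11.4 and 9.95 CPM in HDAC1-cKO replicates 1, 2 and 3, from 411, 427 and 203 counts. In WT it stood at 4.33, 7.996 and 5.03 CPM, from 222, 440 and 191 counts. All 3 HDAC1-cKO libraries lay above all 3 WT libraries, although WT replicate 2 came closest to the lowest of them. The means were 11.3 ± 1.33 and 5.79 ± 1.95 CPM (SD, n = 3), with a log2 difference of 0.97 ± 0.27 (SE) and a 95% interval from 0.35 to 1.59, and 0.95 without HDAC1-cKO replicate 2. H6pd was not past the threshold in edgeR and was past it in DESeq2 and in limma-voom. Those tools called 8.78% and 9.98% of all tested genes, and nothing is read from these calls. Its longest transcript has a GC content of 57.2%, against 43.3% for Hsd11b1, and with offsets that remove each library's GC trend the differences of the pair were 0.87 and -1.16.

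Taken as a ratio of FPKM within each library, Hsd11b1 exceeded H6pd by 18.7, 17.5 and 21.1 times in HDAC1-cKO replicates 1, 2 and 3 and by 101, 77.2 and 101 times in WT. The mean ratio was 19.1 ± 1.82 in HDAC1-cKO and 93.0 ± 13.7 in WT (SD, n = 3). The steroid-regenerating enzyme remained the far more abundant transcript of the pair in both genotypes, at a smaller excess without HDAC1.

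The receptor gene Nr3c1 had similar levels in both genotypes. It was at 19.0, 14.6 and 15.6 CPM in HDAC1-cKO replicates 1, 2 and 3 and at 13.6, 18.3 and 11.04 CPM in WT. WT replicate 2 lay above 2 of the HDAC1-cKO libraries and the other 2 WT libraries lay below all of them. The log2 difference was 0.20 ± 0.22 (SE), with a 95% interval from -0.32 to 0.71, so differences within that interval could not be resolved with these libraries, and it was 0.27 without HDAC1-cKO replicate 2. It was 0.07 without HDAC1-cKO replicate 1, 0.04 without WT replicate 3, 0.40 without WT replicate 2 and 0.34 with GC offsets. The related mineralocorticoid receptor gene Nr3c2 had 0 counts, as did Hsd11b2, whose enzyme inactivates the hormone.

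Among the response genes, Tsc22d3 had the widest spread. This gene encodes the leucine zipper protein GILZ, which dampens NF-kB and AP-1 in T cells. It was at 36.6, 22.3 and 29.5 CPM in HDAC1-cKO replicates 1, 2 and 3 and at 26.7, 52.0 and 58.8 CPM in WT. WT replicates 2 and 3 were above every HDAC1-cKO library, while WT replicate 1 was within their range. The log2 difference was -0.63 ± 0.30 (SE), with a 95% interval from -1.34 to 0.07. It was -0.92 without WT replicate 1, -0.42 without WT replicate 3 and -0.47 without HDAC1-cKO replicate 2, and it did not pass the threshold in any of these cases. Within WT the highest FPKM of Tsc22d3 was 2.22 times the lowest, the widest range of any member in either genotype.

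Fkbp5, an HSP90 co-chaperone that lowers the hormone affinity of the receptor and is itself induced by it, overlapped between genotypes. Its values were 30.3, 23.0 and 29.5 CPM in HDAC1-cKO replicates 1, 2 and 3 and 30.2, 37.9 and 24.02 CPM in WT. The lowest library was an HDAC1-cKO one and the highest a WT one, with the other 4 between them. The log2 difference was -0.16 ± 0.20 (SE; 95% interval from -0.62 to 0.31). It was 0.01 without WT replicate 2 and -0.05 without HDAC1-cKO replicate 2.

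Per1, a circadian clock gene with a direct receptor response, was low. It had 65, 129 and 56 counts in HDAC1-cKO replicates 1, 2 and 3 and 204, 176 and 127 counts in WT, or 1.99, 3.45 and 2.74 CPM against 3.98, 3.20 and 3.35 CPM. Only HDAC1-cKO replicate 2, the library with the GC trend, reached the WT range. With a GC content of 59.4% Per1 has the most GC-rich transcript of the 7. The log2 difference of -0.36 ± 0.29 (SE; 95% interval from -1.03 to 0.31) was -0.51 with GC offsets and -0.58 without that library, and -0.18 without HDAC1-cKO replicate 1 and -0.13 on log2(FPKM + 1).

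Zbtb16, which encodes the transcription factor PLZF of innate-like T cells and is induced by glucocorticoid in many tissues, had 0 counts in all 6 libraries, out of 235750781 counts in total. A count of 0 allows a level of up to 0.0545 CPM in the deepest library and 0.147 CPM in the shallowest, for counting error only. The gene is therefore listed at 0 in both genotypes and gives no comparison.

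The plot of members under other processing shows how far each log2 difference moved. Hsd11b1 and H6pd kept their sign in every setting run, as did Nr3c1, Tsc22d3 and Per1.

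**Figure D2:**
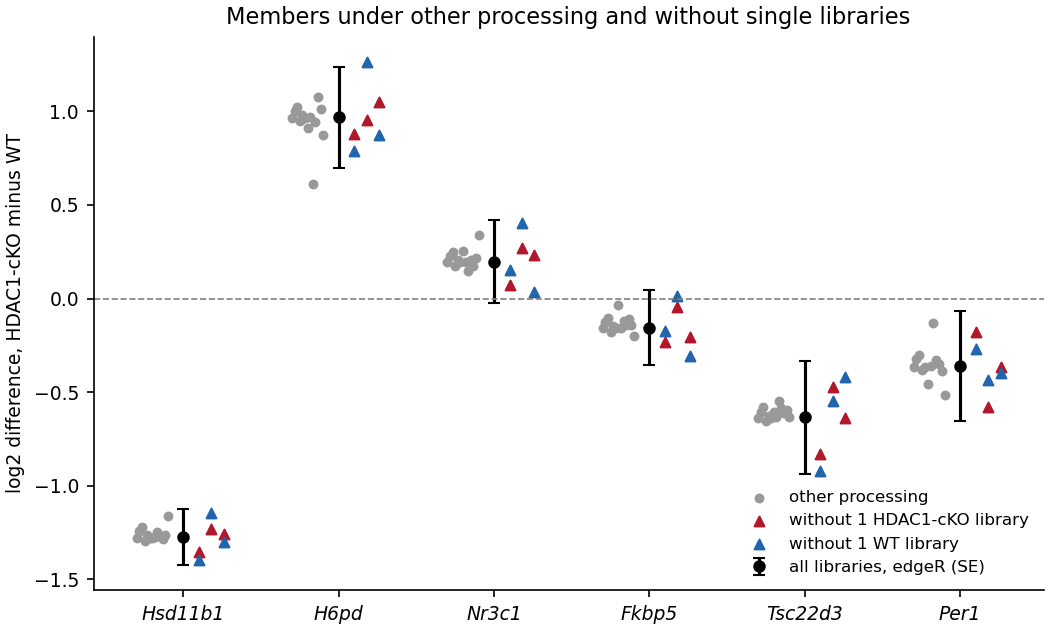
Log2 difference (HDAC1-cKO minus WT) of the 6 detected members: black points with all libraries in edgeR (whiskers SE), grey points other processing, and triangles without 1 library (red HDAC1-cKO, blue WT). Hsd11b1 stays between -1.39 and -1.15, and Fkbp5 crosses 0 once, at 0.01 without WT replicate 2.

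In the deposited coordinates (GRCm38), H6pd lies on chromosome 4 from 149979475 to 150009023, Fkbp5 on chromosome 17 from 28399094 to 28517527 and Tsc22d3 on chromosome X from 140539528 to 140600659, all on the minus strand. Per1 lies on chromosome 11 from 69095217 to 69109960, plus strand, and Zbtb16 on chromosome 9 from 48654297 to 48836222, minus strand. None of the 7 genes shared exon bases with another gene, and at most 0.684% of their stretches of 50 bases, in Fkbp5, were shared with transcripts of other genes.

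The order of levels per length was the same in both genotypes at the top. In WT the FPKM were 106 ± 18.6 for Hsd11b1, 16.4 ± 6.10 for Tsc22d3, 4.64 ± 1.04 for Fkbp5, 2.16 ± 0.553 for Nr3c1, 1.18 ± 0.398 for H6pd and 0.617 ± 0.0709 for Per1 (SD, n = 3). In HDAC1-cKO they were 43.8 ± 3.92, 10.5 ± 2.57, 4.16 ± 0.616, 2.48 ± 0.354, 2.31 ± 0.271 and 0.478 ± 0.127 in the same order. Nr3c1 and H6pd differed by less than their spread in HDAC1-cKO, where both ran from about the same lowest to a similar highest value (2.20 to 2.87 and 2.03 to 2.57). In WT the highest H6pd value, 1.63, was just under the lowest Nr3c1 value of 1.68. All other neighbours in the order were separate in every library.

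The 7 genes did not move as a block across the 6 libraries. Of the 6 tested, 4 had negative and 2 positive log2 differences, with a median of -0.26, against -0.002 over all tested genes. As a description over 6 libraries that differ in genotype and depth, log2 CPM of Hsd11b1 correlated with that of Tsc22d3 at a Pearson r of 0.717 and with that of H6pd at -0.735. For Tsc22d3 and Fkbp5 r was 0.291, and for Tsc22d3 and Per1 it was -0.137.

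Genes with the most similar pattern were taken from 8329 genes of at least 10 CPM on average, by Pearson r of log2 CPM over the 6 libraries. For Hsd11b1 they were the kinase genes Tlk1 and Camk1d and the mitochondrial carrier gene Slc25a12 (r = 0.999, 0.999 and 0.997), with 127 genes above 0.95. H6pd was closest to Sdhaf2 (r = 0.981), Nr3c1 to Senp7 and Akip1 (0.978 and 0.957) and Fkbp5 to Kdm3b and Pstk (0.983 and 0.981). Tsc22d3 was closest to Mia2 and Bik (0.997 and 0.985) and Per1 to Akap8l and Eef2 (0.993 and 0.985). None of these genes passed the threshold between genotypes in edgeR. Pearson r does not compare the size of a difference. Tlk1, Camk1d and Slc25a12 had log2 differences of -0.60, -0.51 and -0.53, against -1.27 for Hsd11b1. That of Sdhaf2 was 0.11, against 0.97 for H6pd. Only Kdm3b differed by more than its member, at -0.20 against -0.16 for Fkbp5. These values describe 6 libraries and carry no test.

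The nearest gene that does not overlap Hsd11b1 went the other way. G0s2 (chromosome 1, 193272161 to 193273217, minus strand), which encodes an inhibitor of triglyceride lipase, lies 8086 bases upstream of the annotated Hsd11b1 body and shares no exon bases with Lamb3, which overlaps it. It was at 2.64, 3.21 and 2.89 CPM in HDAC1-cKO replicates 1, 2 and 3, from 86, 120 and 59 counts. WT had 0.195, 0.182 and 0.237 CPM, from only 10, 10 and 9 counts. All 3 HDAC1-cKO libraries lay above all 3 WT libraries. The log2 rise of 3.82 ± 0.38 (SE) had an edgeR adjusted p of 0.00609, and it still passed when any 1 library was left out (edgeR adjusted p up to 0.044). On log2(FPKM + 1) the rise was 1.80. G0s2 stayed far below the level of Hsd11b1 and has no value under the 10 CPM filter.

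Of 12 further genes within 100000 bases of Hsd11b1, G0s2 included, 8 were tested. In edgeR 1 was called higher and 0 were called lower, against 0.979% and 0.992% of all tested genes. Traf3ip3, a T cell signalling adaptor, was the abundant one at 83.4 ± 8.58 and 117 ± 6.78 CPM, HDAC1-cKO first (SD, n = 3). Its log2 difference was -0.49 (edgeR adjusted p = 0.0843), and it passed in DESeq2, in limma-voom and without HDAC1-cKO replicate 2. Its libraries were separate with HDAC1-cKO lower, and those of Diexf with HDAC1-cKO higher, against 11.8% and 12.7% of all tested genes. The differences of Diexf, Lamb3, 4930570N18Rik and A130010J15Rik were 0.70, -0.60, -0.46 and -0.06 (edgeR adjusted p from 0.476 to 0.929). Lamb3 and 4930570N18Rik run along the other strand of the Hsd11b1 body without sharing exon bases, and Gm38118, a transcript model inside the body on the same strand, differed by -1.44 at a mean under 1 CPM (edgeR adjusted p = 0.503).

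**Figure D3:**
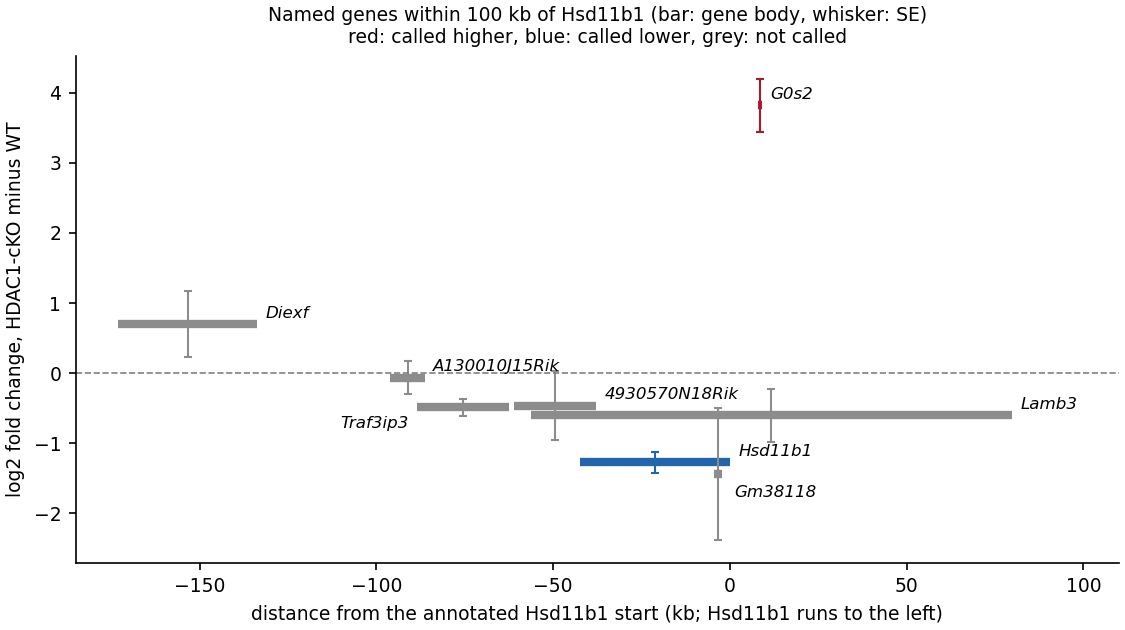
Log2 fold change (HDAC1-cKO minus WT) of Hsd11b1 and 7 of the 8 tested genes around it against distance from its annotated start in kb; bars span gene bodies and whiskers are SE. G0s2, just upstream, stands at 3.82 and Hsd11b1 at -1.27, with the other genes shown between -1.44 and 0.70.

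The other genes of the pathway were taken as 5 lists by role. The lists were chosen with earlier results of these data known, so their values are given as a description. Their counts stand against 1.97% of all tested genes called in edgeR, 17.0% with an unadjusted edgeR p under 0.05, 8.78% called in DESeq2 and 9.98% called in limma-voom. Of 21 further genes that make, inactivate or carry glucocorticoid or feed the NADPH supply, 12 were tested and 8 had 0 counts, among them the steroid synthesis genes Cyp11b1, Cyp21a1 and Cyp17a1. In edgeR 0 passed, 4 had an unadjusted p under 0.05, and DESeq2 called 3 and limma-voom 2. Libraries were separate in 2 of the 12 with HDAC1-cKO lower and in 2 with it higher, against 11.8% and 12.7% of all tested genes. The median was -0.02, with 6 genes each side of 0, and its sign depended on the setting: it was 0.02 with upper-quartile factors, 0.04 with total counts alone and 0.12 without a filter. Without HDAC1-cKO replicate 1, HDAC1-cKO replicate 3 or WT replicate 1 it was 0.265, 0.22 and 0.06, and without HDAC1-cKO replicate 2 it was -0.25. G6pc3, a phosphatase gene whose enzyme uses the same sugar phosphate as H6pd, had means of 33.1 ± 2.31 against 19.96 ± 2.82 CPM (SD, n = 3). Its log2 difference was 0.73 ± 0.16 (SE, edgeR adjusted p = 0.0592). Abcb1a, a pump that exports steroids, differed by -0.90 ± 0.28 (edgeR adjusted p = 0.142), with 3.04 ± 0.653 against 5.69 ± 1.11 CPM (SD, n = 3). Without HDAC1-cKO replicate 2, edgeR called G6pc3 higher and Slc37a4 lower, among 626 calls over 16147 tested genes. Slc37a4, the transporter that brings that sugar phosphate into the endoplasmic reticulum, differed by -0.62 with all libraries (edgeR adjusted p = 0.156).

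Of 16 tested chaperones of the receptor, 14 had positive and 2 negative log2 differences, where 50.3% of all tested genes were negative. The median of 0.12 kept its sign under every scaling and ran from 0.04 without HDAC1-cKO replicate 1 to 0.25 without WT replicate 1, with 0.23 without HDAC1-cKO replicate 2. Every HDAC1-cKO library lay above every WT library in 4 of the 16, against 12.7% of all tested genes, and below in 0. In edgeR 1 passed, 4 had an unadjusted p under 0.05, and DESeq2 called 2 and limma-voom 3. Fkbp4, the co-chaperone that carries the receptor toward the nucleus and competes with Fkbp5 for the same place on HSP90, rose without HDAC1, to a mean of 479.8 ± 27.3 CPM against 287 ± 40.6 CPM (SD, n = 3). Its values were 511, 461 and 468 CPM in HDAC1-cKO replicates 1, 2 and 3 and 331, 252 and 278 CPM in WT, without overlap. The log2 fold change was 0.74 ± 0.12 (SE, edgeR adjusted p = 0.0323), and the other 15 genes did not pass. Leaving out HDAC1-cKO replicate 1 or 3 or any WT library ended this call (edgeR adjusted p from 0.051 to 0.144), as did GC offsets (edgeR adjusted p = 0.0501) and limma on log2(FPKM + 0.1) (limma adjusted p = 0.102). Its log2 fold change ran from 0.64 to 0.85 without 1 library and was 0.66 with GC offsets. Stub1, a ubiquitin ligase that acts on chaperone clients, differed by 0.38 ± 0.11 (edgeR adjusted p = 0.131). Hsp90ab1 and Hsp90aa1, the HSP90 genes, differed by 0.18 and 0.05 (edgeR adjusted p = 0.540 and 0.930).

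Of 17 tested coregulators 0 passed in edgeR, 3 had an unadjusted p under 0.05, and DESeq2 called 1 and limma-voom 2, shares near those over all tested genes. The median was -0.12, with 11 negative, and it was -0.06 without WT replicate 2 or with total counts alone. Libraries were separate in 3 of the 17 with HDAC1-cKO lower and in 2 with it higher, against 11.8% and 12.7% of all tested genes. Ncoa1, a receptor coactivator, differed by 0.97 ± 0.28, and Ep300, a histone acetyltransferase, by -0.54 ± 0.18 (SE, edgeR adjusted p = 0.124 and 0.175).

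Of 33 tested genes that glucocorticoid is known to induce, the members left out, 23 had negative log2 differences, against 50.3% of all tested genes, with a median of -0.39 and a range of medians from -0.39 to -0.33 over the other scalings. It was -0.22 without HDAC1-cKO replicate 3. In 10 of the 33 every HDAC1-cKO library lay below every WT library, against 11.8% of all tested genes, and in 2 above. In edgeR 0 passed, 12 had an unadjusted p under 0.05, and DESeq2 called 7 and limma-voom 8. Sgk1, a kinase gene, had means of 122 ± 18.1 and 181 ± 6.15 CPM, HDAC1-cKO first (SD, n = 3; log2 difference -0.56 ± 0.13, SE, edgeR adjusted p = 0.0721). Cebpd, a transcription factor gene, went the other way, with 9.27 ± 1.28 against 4.25 ± 0.671 CPM (log2 difference 1.12 ± 0.23, SE, edgeR adjusted p = 0.0516). Without HDAC1-cKO replicate 2, edgeR called Sgk1, Btg2, Rgcc and Zfp36 lower and Cebpd higher, among 626 calls over 16147 tested genes. Without HDAC1-cKO replicate 1 it called Anxa1 lower, among 29 calls over 16224 tested genes. With all libraries Btg2, Rgcc, Zfp36 and Anxa1 differed by -0.75, -0.93, -0.47 and -1.68, short of the threshold. Many of these genes also respond to other signals in T cells, and of 15 T cell markers 12 had negative differences, with a median of -0.23, and Cd3e and Cd2 fell; their part in the result was not tested.

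Of 18 tested genes that glucocorticoid is known to hold down, 15 had negative log2 differences, with a median of -0.61. It was -0.31 without HDAC1-cKO replicate 1, -0.30 without HDAC1-cKO replicate 3, -0.24 without WT replicate 1, -0.37 in limma-voom, -0.29 on log2(FPKM + 1) and -0.23 with the 10 CPM filter. Every HDAC1-cKO library lay below every WT library in 5 of the 18, against 11.8% of all tested genes, and above in 0. In edgeR 0 passed, 4 had an unadjusted p under 0.05, and DESeq2 called 4 and limma-voom 2. Csf2, the cytokine gene of GM-CSF, was at 0.0307, 0.321 and 0.0980 CPM in HDAC1-cKO replicates 1, 2 and 3, from 1, 12 and 2 counts. Replicates 1 and 3 were thus under the floor of 3 counts. In WT it was at 14.2, 0.999 and 3.53 CPM. The log2 difference was -5.26 ± 1.14 (SE, edgeR adjusted p = 0.0609), and it was -2.37 on log2(FPKM + 1) and -3.84 without WT replicate 1. The death ligand gene Fasl was at 1.38 to 1.58 CPM in HDAC1-cKO and at 16.0, 4.398 and 3.85 CPM in WT (log2 difference -2.44 ± 0.57, SE, edgeR adjusted p = 0.0724). In both genes WT replicate 1 was far above the other WT libraries. That library also had the highest sum of cytotoxic and innate-like cell markers, 1255 CPM, against 279.6 and 294 CPM in the other WT libraries and 349 to 825 CPM in HDAC1-cKO, a relation that was not tested.

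**Figure D4:**
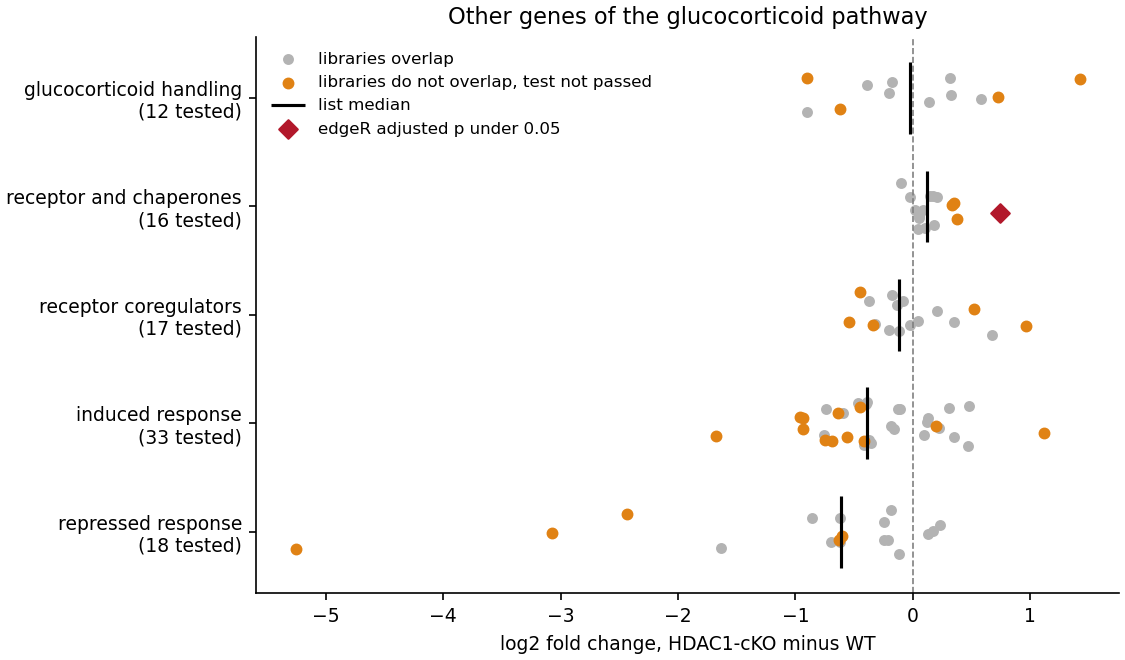
Log2 fold change (HDAC1-cKO minus WT) of each tested pathway gene other than the members, 1 row per list; grey points have overlapping libraries, orange points do not overlap but did not pass the test, the red diamond passed it and black lines are list medians. Fkbp4, at 0.74, is the one gene called, and the medians run from -0.61 in the repressed to 0.12 in the chaperone list.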

How the data were processed

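RNA of sorted CD4+ T cells was sequenced in 6 libraries; per the labels' protocols these were Smart-seq2 cDNA, Nextera XT libraries and single reads. The authors deposited raw read counts per gene and FPKM; per the submitters' processing notes the tools included R 3.6.1, DESeq2 1.24.0, STAR 2.5.2b and Picard 2.19.2. Neither the read counter nor its handling of strand is given in the sources used here. Across 10896 genes the library factor in the deposited FPKM equalled DESeq2's size factor, so FPKM of a gene compare between libraries. Of 55536 genes in the count table, 55450 had the position given in GENCODE M21 on GRCm38; 0 columns were left without a sample.

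Counts were filtered with filterByExpr (15519 genes), scaled by TMM and tested with edgeR 4.0.16 in R 4.3.3 (quasi-likelihood F test, robust, two-sided, Benjamini-Hochberg over all tested genes, threshold 0.05). CPM used TMM-scaled totals; standard errors came from the fold change and its p. The intervals of the differences between genotypes rest on those standard errors, so they include the spread between libraries. The reads carry no molecular identifiers, and the floors (3 counts) cover counting error only. Alternatives were other scalings and filters, DESeq2 1.42.0, limma-voom 3.58.1 with sample weights, limma on log2(FPKM + 1) or log2(FPKM + 0.1), thinned counts, GC offsets, a replicate block and leaving out each library. The tests were tried on simulated counts.

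The members and lists were chosen with earlier results of these data known. Named genes are the members, Hdac1, in each list up to 4 called genes or otherwise the 2 with the lowest p, the tested neighbours of Hsd11b1 and the 2 genes (3 for Hsd11b1) closest in pattern to each member; other names were chosen after their values were seen. The marker genes Ccl19 and Ccl21a each matched 2 identifiers, and both were kept. A tested neighbour and a gene close in pattern to H6pd are not reported here. Sequences are RefSeq's. Python 3.11.15 with matplotlib 3.10.9 drew the plots.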

Additional observations from a re-analysis of the deposited data

How the results depend on the processing

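Of 113 values of the 6 detected members recomputed under 19 other settings, 107 kept their direction and their side of the threshold. Nr3c1, Fkbp5, Tsc22d3 and Per1 were far from the threshold (edgeR adjusted p from 0.344 to 0.770), so their staying uncalled carries little weight. All settings drew on the same 6 libraries. Hsd11b1 lost its call in 3 of the 6 settings that leave out a library, H6pd gained one with DESeq2 and limma-voom, and Fkbp5 ran from -0.308 to 0.013 without 1 library, above 0 without WT replicate 2. The uncalled neighbour A130010J15Rik turned to 0.022 with limma-voom, 0.044 with GC offsets and ran from -0.231 to 0.103 without 1 library, highest without WT replicate 2. Per1 has no value under the 10 CPM filter. The cause of each change was not tested.

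The numbers of all genes called higher and lower, 152 and 154, were 698 and 665 with DESeq2, 747 and 802 with limma-voom, 242 and 255 with GC offsets, 63 and 40 on log2(FPKM + 0.1), and 243 lower genes were called without a low-count filter. Without 1 library they ran from 15 to 258 and from 10 to 368; HDAC1-cKO replicate 2 was left out in the highest of each. The replicate block gave 34 and 31 and left 0 chaperones called. The labels share only numbers: same-numbered libraries had deviations correlated at 0.0238, -0.00161 and -0.0422.

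List calls, of steroid handling, chaperone, coregulator, induced and repressed genes in that order, were 0, 1, 0, 0 and 0. With DESeq2 they were 3, 2, 1, 7 and 4, and with limma-voom 2, 3, 2, 8 and 2. Steroid handling had 1 call with total counts alone, the 10 CPM filter, log2(FPKM + 1), thinned counts or GC offsets. Chaperones had 0 on log2(FPKM + 0.1) and with GC offsets. Induced genes had 1 call with upper-quartile factors, total counts alone, the 10 CPM filter, no robust estimation or log2(FPKM + 1), 2 without a filter and 3 with GC offsets; repressed genes had 2 without a filter and 1 with thinned counts. Without 1 library the calls ran from 0 to 2, 0 to 1, 0 to 0, 0 to 5 and 0 to 0.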
